A study of Mus musculus with 4 samples.

Results

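The interleukin 1 axis and the inflammatory cytokines around it were followed through single cells of the mouse aortic arch. The 10 genes were chosen by name from the 31053 features of the count matrices: the ligands Il1a and Il1b, the antagonist Il1rn, the receptors Il1r1 and Il1r2, the inflammasome sensor Nlrp3, the cytokines Tnf, Il6 and Il18, and Ptgs2, the inducible cyclooxygenase. Each was matched to a single feature, and all 10 had at least 200 UMIs (unique molecular identifiers, each counting 1 captured molecule) in the cells kept. The study sorted live, DAPI-negative cells from aortic arches with their main branches and the tissue around them and sequenced them as 4 libraries. Nrf2flox/flox mice carry loxP sites around exon 5 of Nfe2l2, the gene of the oxidative stress regulator Nrf2, and served as controls. In Nrf2Cdh5tKO mice a constitutive Cre under the Cdh5 promoter removes that exon in endothelial cells and in a proportion of leukocytes. Mice were males aged 3 months at the start. They were fed a high-fat diet for 21 weeks (atherosclerotic) or a standard diet (normocholesterolemic), and the 2 states also differed in an injection given at the start. Each normocholesterolemic library pooled 4 mice and each atherosclerotic library 3 mice. Each group was therefore 1 library, so no difference between groups could be tested, and no value below has a replicate check.

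Interleukin 1 exists as 2 ligands that act on the same signalling receptor. Il1a is made as an active alarmin, while the Il1b precursor has to be processed by caspase-1, which inflammasomes such as the one built on Nlrp3 activate. The receptor encoded by Il1r1 signals through Myd88 and NF-kB, the antagonist Il1rn occupies it without signalling, and Il1r2 is a decoy that binds ligand and has no signalling domain. Il6 and Ptgs2 are classical targets of IL-1 and TNF signalling in stromal cells, and Il18 is a relative of Il1b that is processed in the same way. On GRCm38, Il1a (chr2:129299610-129309972) and Il1b (chr2:129364570-129371139) lie near each other on the minus strand, as do Il1r2 (chr1:40074079-40125231) and Il1r1 (chr1:40225080-40317257) on the plus strand. Il1rn lies at chr2:24336853-24351494, Ptgs2 at chr1:150100031-150108227, Nlrp3 at chr11:59541568-59566956, Tnf at chr17:35199381-35202007, Il6 at chr5:30013114-30019981 and Il18 at chr9:50554827-50581840. In atherosclerosis this axis is known for linking cholesterol-loaded arteries to vascular inflammation.

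Of 15599 barcodes, 14148 passed the study's limits and were kept, 7890, 2972, 1020 and 2266 in the normocholesterolemic Nrf2flox/flox, normocholesterolemic Nrf2Cdh5tKO, atherosclerotic Nrf2flox/flox and atherosclerotic Nrf2Cdh5tKO libraries. Where 4 values are given in a row below, they follow this order. Median depth was 9200 to 14152 UMIs per cell, and 22 of the kept barcode sequences were found in more than 1 library. Cells were gated by marker genes. Fibroblasts made up 7561 cells and smooth muscle cells 2234, while neutrophils numbered 141 (101, 15, 18 and 7). Macrophages outside both the Lyve1+ resident and the cavity gate, called other macrophages here, numbered 379 (150, 105, 29 and 95). They were not free of the Lyve1+ resident markers, which summed to 469, 691, 224 and 605 CPM (UMIs per 1000000 UMIs) in them. In the Lyve1+ resident gate these markers summed to 3396 to 4165 CPM. The 7 neutrophil markers summed to between 225820 and 343969 UMIs per 1000000 UMIs (CPM) in gated neutrophils and to 13.5 to 65.1 CPM in fibroblasts. The gates of the smaller myeloid types were less clean. In classical monocytes the neutrophil markers summed to 9693, 41475, 41582 and 422 CPM, beside 8028, 6245, 6102 and 4453 CPM for the markers of their own type. Nonclassical monocytes of the normocholesterolemic Nrf2flox/flox library had 32202 CPM of neutrophil markers beside 2112 CPM of their own. In type 2 dendritic cells the cavity macrophage markers summed to 12230, 4448, 1178 and 4268 CPM. Their own markers summed to 1871, 1929, 1893 and 1620 CPM. Mesothelial cells had fibroblast markers at 7857 and 10228 CPM in the normocholesterolemic libraries and at 5214 CPM in the atherosclerotic Nrf2Cdh5tKO library. Their own markers summed to 5389, 5843 and 6168 CPM in the same libraries. The part of these markers in the monocyte, dendritic cell and mesothelial levels below was not tested. Endothelial Nfe2l2 was 199 CPM (95% interval 156 to 251) and 381 CPM (311 to 462) in the normocholesterolemic Nrf2flox/flox and Nrf2Cdh5tKO libraries, and 176 CPM (123 to 245) and 346 CPM (261 to 451) in the atherosclerotic ones. It was thus not lower in either library labelled Nrf2Cdh5tKO, and 3′ counts do not show whether exon 5 was removed. One fibroblast cluster of 408 gated cells, led by Col8a1 and Meox1, held 389 cells of the library labelled normocholesterolemic Nrf2Cdh5tKO and 19 of the others. Fibroblast levels, shares and ratios of Il6 and Ptgs2, and the ratios of Il1r1 and of the NF-kB list, are given with and without it. Genes named to describe a cluster were chosen after their values were seen. Levels are CPM of a cell type, with exact 95% Poisson intervals in parentheses. Intervals cover counting error only, and levels were not compared between genes.

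**Figure D1:**
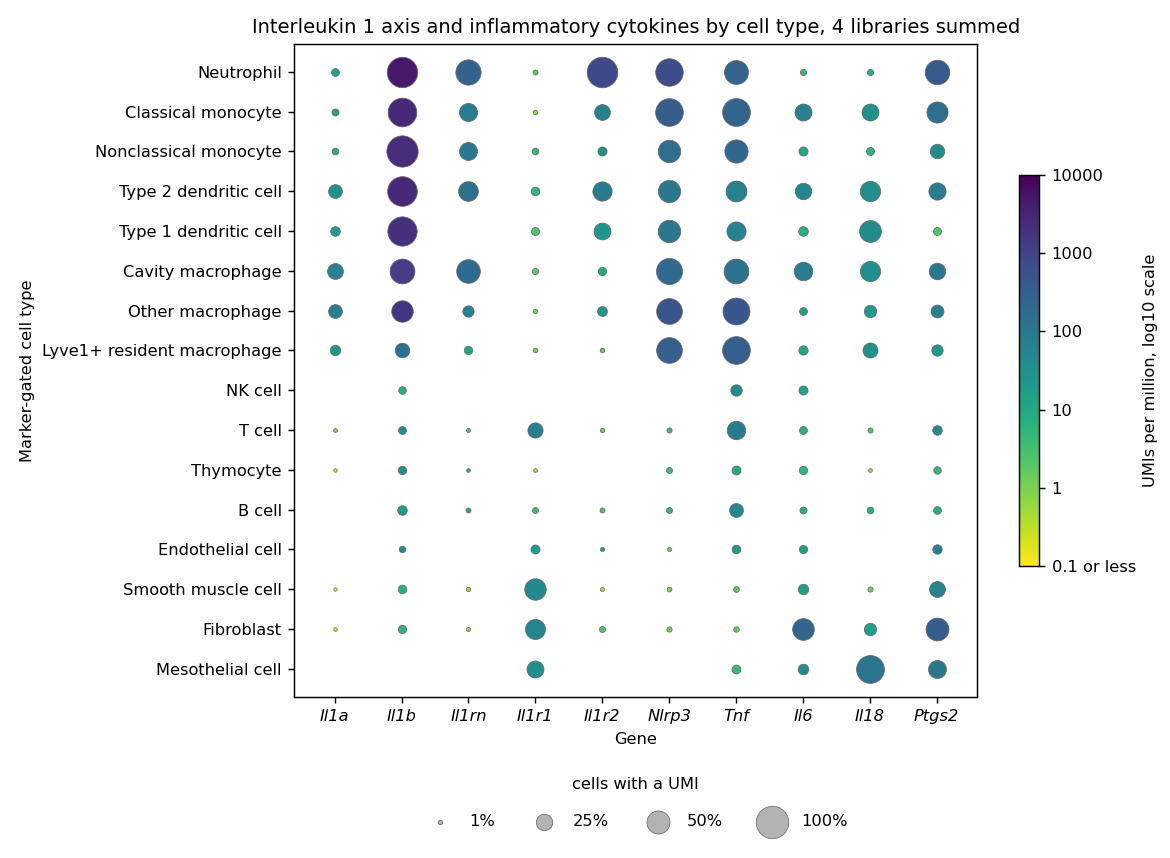
Level of each of the 10 genes in each gated cell type with the 4 libraries summed, on a log scale of CPM. Rows are cell types, columns are genes, colour gives the level and dot area the share of cells with a UMI. Il1b, Il1rn, Il1r2, Nlrp3 and Tnf have their highest levels in myeloid rows, though Il1rn and Il1r2 are low in some of these rows. Il1r1 lies mainly in stromal cells and T cells at middling levels, Il6 is highest in fibroblasts, and Ptgs2 is high in neutrophils and fibroblasts.

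The genes split between a myeloid and a stromal side. With the libraries summed, neutrophils held the highest level of 5 of the 10 genes (Il1b, Il1rn, Il1r2, Nlrp3 and Ptgs2), where 4.36% of the 13178 genes with at least 200 UMIs were highest in that type. In all, 8 of the 10 genes were highest in a leukocyte type (56.2% of all genes) and 2 in a stromal type (43.8%), stromal here meaning fibroblasts, smooth muscle, endothelial and mesothelial cells. Other macrophages were highest for Il1a and Tnf (1.61% of all genes), fibroblasts for Il6 (9.86%), T cells for Il1r1 (2.92%) and mesothelial cells for Il18 (13.3%). The library of normocholesterolemic Nrf2flox/flox mice held 101 of the 141 neutrophils. Without it, neutrophils were highest for 2 of the 10 genes, Il1b and Il1r2, while Ptgs2 and Il1r1 were highest in fibroblasts, Nlrp3 in other macrophages, Il1rn in nonclassical monocytes and Il1a in cavity macrophages. The 18 mesothelial cells left were under the minimum of 20 cells set for this comparison, and among the other types Il18 was highest in classical monocytes. Without the normocholesterolemic Nrf2Cdh5tKO library, Il18 was highest in type 1 dendritic cells, again with too few mesothelial cells to compare.

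Upstream sequences of 4 genes are shown. Il1b and Tnf lie on the myeloid side. Il6 and Ptgs2 are the pair found together in fibroblasts, though Ptgs2 was also high in neutrophils. Each line gives the 250 bases before the start of the gene, 5′ to 3′ on the strand of the gene, from the RefSeq annotation of GRCm38.p6. Capitals mark matches to 4 motifs: NF-kB (GGG, any 2 bases, then TTTCC, either strand), AP-1 (TGANTCA, either strand), C/EBP (TTNNGNAA, either strand) and the TATA box (TATAAA, given strand alone). The Il1b window is chr2:129371140-129371389 (minus strand), the Tnf window chr17:35202008-35202257 (minus strand), the Il6 window chr5:30012864-30013113 (plus strand) and the Ptgs2 window chr1:150099781-150100030 (plus strand).
Il1b: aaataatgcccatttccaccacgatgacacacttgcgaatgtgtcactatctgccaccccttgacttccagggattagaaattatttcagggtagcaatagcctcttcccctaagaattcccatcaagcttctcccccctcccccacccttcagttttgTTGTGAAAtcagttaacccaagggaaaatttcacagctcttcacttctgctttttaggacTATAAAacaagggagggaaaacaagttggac
Tnf: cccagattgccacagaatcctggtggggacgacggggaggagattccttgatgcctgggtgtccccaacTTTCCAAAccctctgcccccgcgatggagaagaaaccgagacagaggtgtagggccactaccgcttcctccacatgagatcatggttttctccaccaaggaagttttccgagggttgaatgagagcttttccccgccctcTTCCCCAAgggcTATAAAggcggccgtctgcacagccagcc
Il6: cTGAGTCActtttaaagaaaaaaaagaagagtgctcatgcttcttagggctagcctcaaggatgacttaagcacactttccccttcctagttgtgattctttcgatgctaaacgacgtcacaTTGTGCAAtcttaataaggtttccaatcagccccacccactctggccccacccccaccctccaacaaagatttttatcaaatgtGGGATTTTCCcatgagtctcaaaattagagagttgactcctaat
Ptgs2: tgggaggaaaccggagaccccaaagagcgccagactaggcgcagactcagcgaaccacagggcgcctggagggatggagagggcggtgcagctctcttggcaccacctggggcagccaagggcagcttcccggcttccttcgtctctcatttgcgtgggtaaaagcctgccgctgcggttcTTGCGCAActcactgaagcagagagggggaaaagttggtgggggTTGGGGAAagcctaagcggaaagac

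The Il6 window held the NF-kB letters starting 44 bases before the start site, which 1.41% of 32851 windows of that length held. It also held AP-1 (6.75% of windows) and C/EBP (36.8%). Il1b and Tnf each held a TATA box, at 31 and 29 bases before the start, as did 7.59% of windows. Ptgs2 held 2 C/EBP matches and no TATAAA. Across the 10 genes, which had 14 windows because some have several starts, C/EBP letters were found for 8 genes, AP-1 and TATA box letters for 3 each, and NF-kB letters for 2, Il6 and Il1rn. The shares above are per window, and by window C/EBP was found in 11 of 14, AP-1 and TATA box in 3 each and NF-kB in 2. A match is a description of letters and does not show binding.

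Il1b, the secreted ligand, was a transcript of neutrophils, monocytes, dendritic cells and macrophages. Neutrophils had 5939 (5732–6151), 5042 (4617–5496), 1498 (1341–1668) and 6439 (5769–7165) CPM, and the atherosclerotic Nrf2flox/flox library was the low one. Classical monocytes had 2496, 3216, 2210 and 4701 CPM and type 2 dendritic cells 2466, 5553, 2033 and 2476 CPM, where 5553 CPM came from 11 cells. Other macrophages, at 1756, 1447, 3029 and 1334 CPM, overlapped with both, and cavity macrophages ranged from 1044 to 2572 CPM. In the order of median levels, each of these neighbours overlapped with the next across libraries, whereas the lowest cavity macrophage value lay above the Lyve1+ resident macrophages, at 98.3, 299.7, 28.2 and 92.7 CPM. Fibroblasts (2.79 to 7.47 CPM) and smooth muscle cells (2.42 to 12 CPM) were lower still.

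Shares of cells with an Il1b UMI did not follow the order of levels exactly. With the libraries summed, 93% of nonclassical monocytes, 87.9% of neutrophils, 83.5% of type 2 dendritic cells, 78.1% of classical monocytes, 58.4% of cavity macrophages and 43.3% of other macrophages had one. In neutrophils, of median depth 3535 UMIs, 90.1%, 93.3%, 72.2% and 85.7% had at least 1 UMI. Thinned to 2000 UMIs per cell, with shallower cells left out, the shares were 85.5%, 84.6%, 55.7% and 82.7%. In smooth muscle cells, which should lack the transcript and had a median of 15346 UMIs, the shares were 2.82% to 7.73% at full depth and 0.579% to 1.24% after thinning, so a share of that size was read as background. The fibroblast share after thinning, 0.504% to 1.36%, was of this size. In the atherosclerotic Nrf2Cdh5tKO library 1 cell held 77.3% of the smooth muscle Il1b UMIs and 1 cell held 58.3% of those of fibroblasts. A single cell also held 97.1% of the 35 Il1b UMIs of endothelial cells in the atherosclerotic Nrf2flox/flox library, and a single cell held all 20 of its Il1r2 UMIs.

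**Figure D2:**
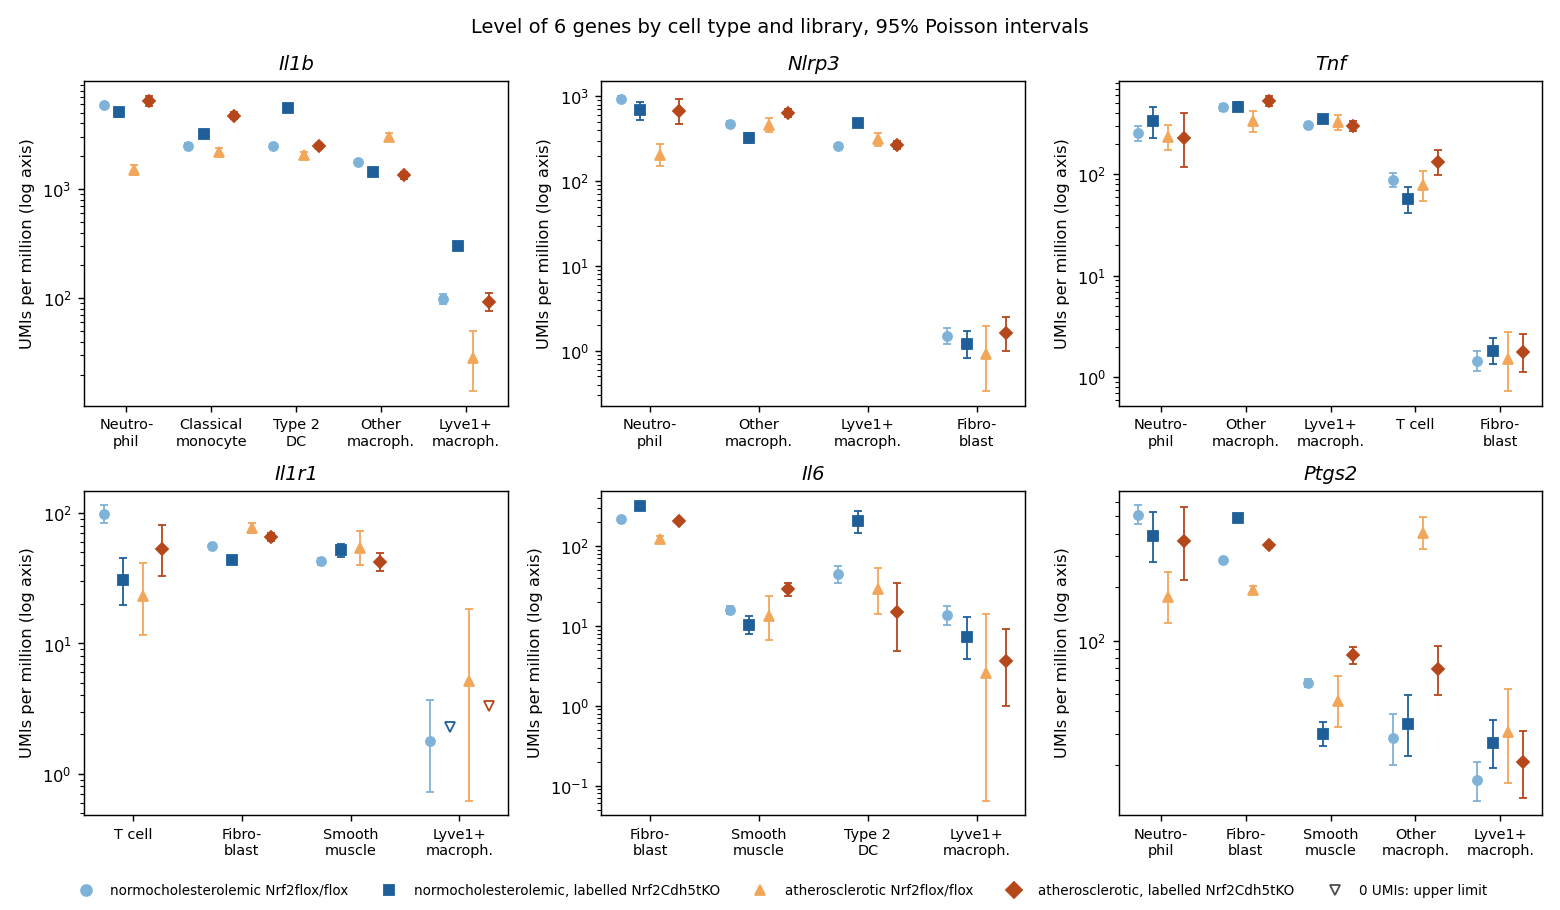
Levels of Il1b, Nlrp3, Tnf, Il1r1, Il6 and Ptgs2 in selected cell types, with a point for each library, on a log axis of UMIs per 1000000 (CPM), with bars for exact 95% Poisson intervals and open triangles at the upper limit where no UMI was counted. The neutrophil Il1b points sit between 1498 and 6439 CPM, and the fibroblast Il6 points between 124 and 317 CPM.

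The neutrophil gate held 2 kinds of cells that carried Il1b very differently. Most of the gate, 101 cells (78, 11, 9 and 3), lay in a cluster led by Retnlg and Acod1 with a median of 3082 UMIs, and 35 cells (19, 4, 8 and 4) in a cluster led by Camp, Ngp and Ltf, granule genes of immature neutrophils, with 12348 UMIs. Within the Retnlg cluster Il1b was 11792, 11975, 11698 and 21581 CPM, the last from 3 cells. In the Camp cluster it was 378, 344, 44.6 and 2140 CPM. The Camp cluster made up 19 of 101, 4 of 15, 8 of 18 and 4 of 7 neutrophils. The lower gated level of the atherosclerotic Nrf2flox/flox neutrophils was not seen within the Retnlg cluster, where this library (11698 CPM) lay beside both normocholesterolemic libraries. Within the Camp cluster this library was the lowest, at 44.6 CPM. The part of the cluster mix in the gated levels was not tested. The clusters were found from variable genes, with any of the chosen genes among these left out. They were not corrected for library, so the difference between them is a description. The cells of the Camp cluster also counted more UMIs each, and the part of depth in this contrast was not tested.

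**Figure D3:**
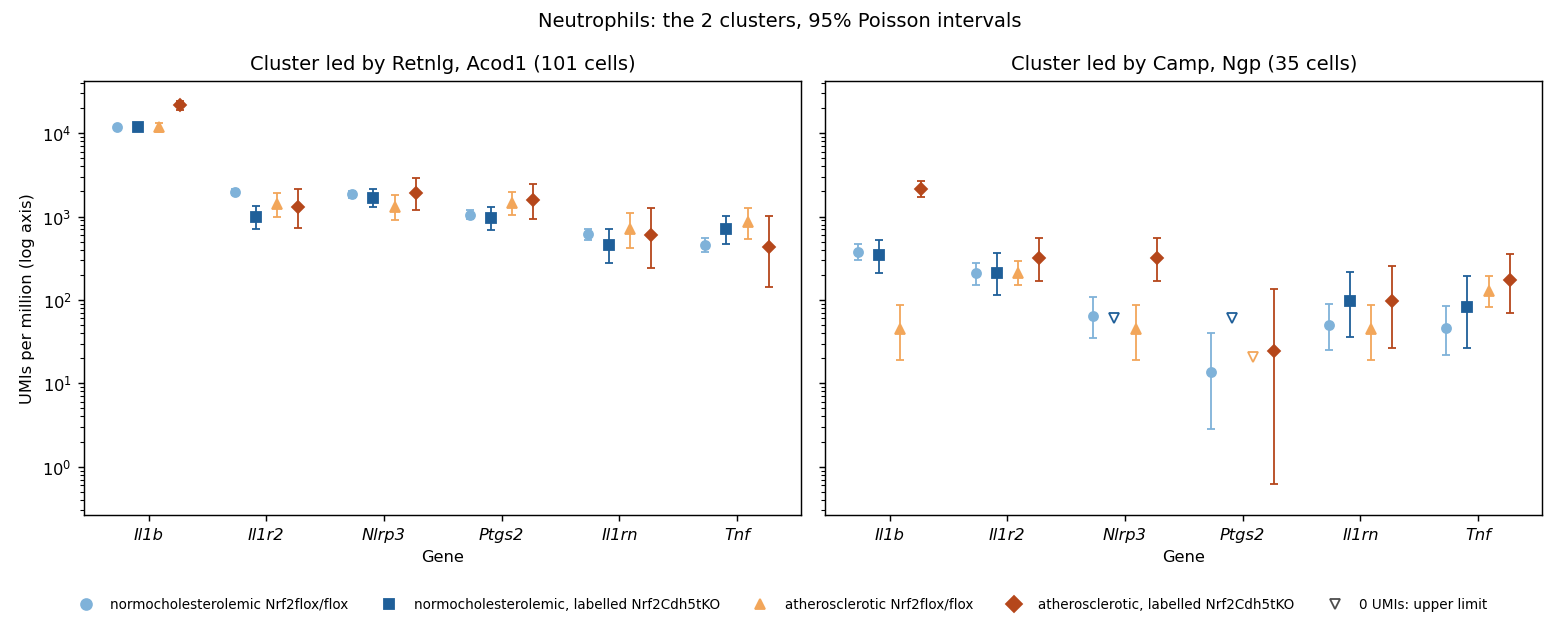
Levels of 6 of the genes in the Retnlg and Camp clusters of gated neutrophils, by library, on a log CPM axis with exact 95% Poisson intervals and open triangles at the upper limit where no UMI was counted. Il1b lies between 11698 and 21581 CPM in the Retnlg cluster and between 44.6 and 2140 CPM in the Camp cluster.

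The other neutrophil genes of the axis split the same way. With the libraries summed, Il1r2 was 1779 CPM in the Retnlg cluster and 219.7 CPM in the Camp cluster, Nlrp3 was 1779 and 69.9 CPM, Il1rn 599 and 57.9 CPM, and Tnf 521 and 89.9 CPM. Ptgs2 was 1090 CPM against 7.99 CPM, the latter from 4 UMIs. Cxcr2, the chemokine receptor of mature neutrophils, was 1403 against 292 CPM, and Camp, which encodes a granule peptide, was 9.03 against 41893 CPM.

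Il1a, the alarmin ligand, was sparse, with 814 UMIs in 1.92% of all kept cells. Other macrophages had 119 (101–139), 26.6 (16.4–40.6), 105 (67.5–157) and 53.7 (36.8–75.9) CPM, and cavity macrophages 59, 148, 41.9 and 37.7 CPM. The 2 types overlapped. A large part of these counts came from single cells: 1 cell held 58.3% of the other macrophage UMIs in the atherosclerotic Nrf2flox/flox library, and 90.9% of its cavity macrophage UMIs. Lyve1+ resident macrophages had 20.2, 43, 5.13 and 15.3 CPM. Il1a had no UMI in 159 endothelial cells, 206 B cells and 43 NK cells, with upper limits of 3.73, 2.6 and 13.6 CPM, while 3 UMIs were counted in 2234 smooth muscle cells.

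Il1rn, which encodes the receptor antagonist, was highest in neutrophils with the libraries summed, at 327 (279.7–379), 244 (158–359.9), 127 (84.4–184) and 211 (105–377) CPM. Cavity macrophages had 216, 156, 95.2 and 162 CPM, type 2 dendritic cells 8.72 to 209 CPM and nonclassical monocytes 37.7, 113, 41.6 and 353 CPM, the last from 12 cells. All 3 types overlapped with neutrophils, and with Leiden clusters as cell types cavity macrophages were the highest. Other macrophages ranged more widely, at 57.4, 7.59, 277 and 85.7 CPM, and 1 cell held 57.1% of the UMIs behind the highest of these values.

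Il1r2, the decoy receptor, was concentrated in neutrophils, at 1065 (979–1157), 527 (396–687), 349 (276–437) and 537 (357–775) CPM, with UMIs in 89.1%, 80%, 88.9% and 100% of the cells. After thinning, 78.8%, 65%, 54.3% and 58.4% of neutrophils had a UMI, against at most 0.177% of smooth muscle cells. The lowest neutrophil value lay above the highest value of the next type, type 2 dendritic cells at 53, 45.8, 163 and 149 CPM, which overlapped with classical monocytes at 18.3 to 128 CPM. No UMI of Il1r2 was counted in 513 thymocytes, whose upper limit was 0.65 CPM.

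Il1r1, the signalling receptor, was found mainly in other cells than its ligands. Fibroblasts had 56.0 (54–58.1), 43.9 (41.4–46.5), 77.4 (70.8–84.4) and 65.8 (61.4–70.4) CPM and smooth muscle cells 42.7 (40–45.4), 52.0 (46.3–58.3), 54.5 (39.8–72.9) and 42.5 (36.1–49.7) CPM. These neighbours overlapped. Endothelial cells had 5.03 to 25.9 CPM from at most 7 UMIs a library. After thinning, 8.32% to 13.3% of fibroblasts and 8.03% to 9.99% of smooth muscle cells had an Il1r1 UMI, compared with at most 0.108% of thymocytes, whose median depth was 6554 UMIs. Several Il1b-rich types had almost none: neutrophils carried 2 Il1r1 UMIs in 141 cells, classical monocytes 1 in 105 cells and other macrophages 4 in 379 cells. Type 2 dendritic cells, also rich in Il1b, ranged from 0 to 14.5 CPM, with a median over libraries of 3.58 CPM.

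T cells were the exception among leukocytes. They held the highest level with the libraries summed, while fibroblasts did under a stricter gate and with Leiden clusters as cell types. By the median over libraries fibroblasts came first at 60.9 CPM, then smooth muscle cells at 47.3 CPM and T cells at 41.9 CPM. T cells had Il1r1 at 98.5 (84–115), 30.7 (19.9–45.3), 23.3 (11.6–41.6) and 53.1 (32.9–81.1) CPM, and UMIs in 32%, 9%, 8.7% and 18.3% of cells. The log2 ratio between normocholesterolemic libraries (Nrf2Cdh5tKO over Nrf2flox/flox) was −1.68 (−2.35 to −1.07), and that of the Nrf2flox/flox pair (atherosclerotic over normocholesterolemic) −2.08 (−3.11 to −1.20). The 92 T cells with an Il1r1 UMI stood apart from the other 343 in genes chosen after their values were seen. Trdc, the constant chain of the gamma-delta T cell receptor, had a UMI in 80.4% of them and in 12.5% of the others, Il23r in 65.2% and 3.5%, and Il17a in 30.4% and 1.75%. Il18r1, the receptor for interleukin 18, had a UMI in 89.1% and 26.8%. Cd4 was found in 1.09% against 25.1% and Cd8a in 2.17% against 33.5%. Median depth was 7918 UMIs in the first set and 6565 in the second. A cluster led by Trdc, Trdv4 and Cd163l1 held 114 of the T cells (74, 15, 10 and 15). Within it Il1r1 was 250.2, 176, 140.3 and 201 CPM, while 185 T cells of a cluster led by Ccr7 and 88 of a cluster led by Ccl5 and Gzma had 1 UMI each. The Trdc cluster made up 74 of 206, 15 of 100, 10 of 69 and 15 of 60 T cells, and its part in the differences between libraries was not tested.

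Nlrp3, the inflammasome sensor, was spread over the myeloid types. Neutrophils had 929 (848–1015), 683 (532–863), 204 (149–273) and 671 (467–933) CPM, other macrophages 469, 323, 461 and 637 CPM, classical monocytes 337, 439, 269.7 and 329 CPM and Lyve1+ resident macrophages 261, 479, 311 and 268 CPM. Each of these 4 types overlapped with the next. Lyve1+ resident macrophages, which had little Il1b, thus carried Nlrp3 within the range of the Il1b-rich types. After thinning, 30.8% to 46.1% of them had an Nlrp3 UMI, against 4.09% to 15.9% with an Il1b UMI. Fibroblasts had 0.915 to 1.64 CPM.

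Tnf, a master cytokine of inflammation, was likewise spread over the myeloid types. Other macrophages had 461 (425–498), 463 (417–513), 334 (263–418) and 532 (475–594) CPM, and Lyve1+ resident macrophages 306 (288–323), 354 (325–384), 326 (272–388) and 301 (269.9–335) CPM, with little spread between libraries. Classical monocytes had 161 to 311 CPM and neutrophils 230 to 332 CPM. In the order of median levels, each of these types overlapped with the next. As a mean over cells, Tnf was highest in neutrophils. Thinned shares were 42% to 54.6% of other macrophages, 38.1% to 41.6% of Lyve1+ resident macrophages and 36.7% to 41.9% of neutrophils, and at most 0.589% of smooth muscle cells. T cells had 88.9, 56.5, 78.3 and 131 CPM. Fibroblasts had 1.46 to 1.82 CPM.

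Il18, a cytokine made without induction in many epithelia, was highest in the 30 mesothelial cells, the covering epithelium of the body cavities. These had 113 (64.9–184) CPM in 12 cells, 109 (74.6–154) CPM in 16 cells, no cell in the atherosclerotic Nrf2flox/flox library and 170.4 (55.3–398) CPM in 2 cells. Type 1 dendritic cells had 25.6 to 41.5 CPM and Lyve1+ resident macrophages 28.4, 31.3, 23.1 and 29.7 CPM. Fibroblasts had 16, 10.6, 15.4 and 13.9 CPM, and their cluster led by Sbsn and Dact2 was the highest at 43.2 CPM. Smooth muscle cells lay below fibroblasts at 0.525 to 4.36 CPM.

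Il6, the cytokine that drives the acute phase response, was a fibroblast transcript: 23037 of its 25355 UMIs were in gated fibroblasts. Their level was 219 (215–223), 317 (310.2–324), 124 (115–133) and 206 (198–214) CPM. A UMI was found in 43.7%, 51.1%, 30.9% and 41.7% of them at full depth and in 21.3%, 26.4%, 13.4% and 21.8% after thinning, when the share in thymocytes was at most 2.3%. Without the Col8a1 cluster the share in the library labelled normocholesterolemic Nrf2Cdh5tKO was 42.4%, or 17.5% after thinning. Smooth muscle cells had 10.3 to 28.6 CPM. Cavity macrophages, at 31.6, 313, 126 and 85.3 CPM, lay near the fibroblast level in the 2 libraries with 13 such cells each, where 1 cell held 40.8% and 66.7% of the UMIs. All 18 Il6 UMIs of other macrophages in the atherosclerotic Nrf2flox/flox library came from 1 cell.

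Ptgs2, the inducible enzyme of prostaglandin synthesis, was strong in fibroblasts and in neutrophils. Fibroblasts had 283 (278–287), 490 (481–499), 193 (183–204) and 344 (334–354) CPM, with UMIs in 49.7%, 52%, 37.6% and 48.2% of cells and in 24.3%, 30%, 16.6% and 27.2% after thinning. In the library labelled normocholesterolemic Nrf2Cdh5tKO the share was 41.8%, or 19% after thinning, without the Col8a1 cluster. Thymocytes had a UMI in at most 1.92% of cells after thinning. Neutrophils had 513 (453–578), 390.1 (279–531), 177 (126–242) and 364 (219–569) CPM and overlapped with fibroblasts. Smooth muscle cells had 57.8, 29.9, 46 and 82.8 CPM.

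Il6 and Ptgs2 were counted together in the same fibroblasts. Among fibroblasts with an Il6 UMI 64.2%, 70.0%, 53.5% and 67.5% also had a Ptgs2 UMI, and among those without 38.4%, 33.3%, 30.5% and 34.4%. Cells with Il6 were deeper, with medians of 13643 against 11026 UMIs in the normocholesterolemic Nrf2flox/flox library. At 2000 UMIs per cell the expected shares were 38.6%, 56.1%, 33.9% and 47.7% against 20.5%, 20.7%, 13.9% and 21.5%, so the order was present in all 4 libraries at equal depth. Leaving out the Col8a1 cluster, the library labelled normocholesterolemic Nrf2Cdh5tKO had 39.8% against 14.6%.

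The fibroblast clusters differed widely in Il6 and Ptgs2. The cluster led by Col8a1 and Meox1 had 747 CPM of Il6 and 1277 CPM of Ptgs2 with the libraries summed. It made up 24.5% of the fibroblasts in the library labelled normocholesterolemic Nrf2Cdh5tKO but held 57.7% of their Il6 UMIs and 62.8% of their Ptgs2 UMIs. A cluster of 665 cells led by Ifi205 and Ptx3 had Il6 at 409, 247, 237 and 383 CPM. A cluster of 156 cells led by Wif1 had 17.2 CPM. Counting all kept cells, the Wif1 cluster held 157, 2, 0 and 0 cells by library. A cluster led by Gm13305 and Aqp5 held 165, 1, 1 and 0. These clusters were thus also nearly all from 1 library, and ratios without them were not computed. Within the smooth muscle gate, a cluster of 143 cells led by Tagln and Acta2 had 117 CPM of Il6 and 153 CPM of Ptgs2, against 5.15 to 12.6 CPM of Il6 in the 3 larger clusters.

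**Figure D4:**
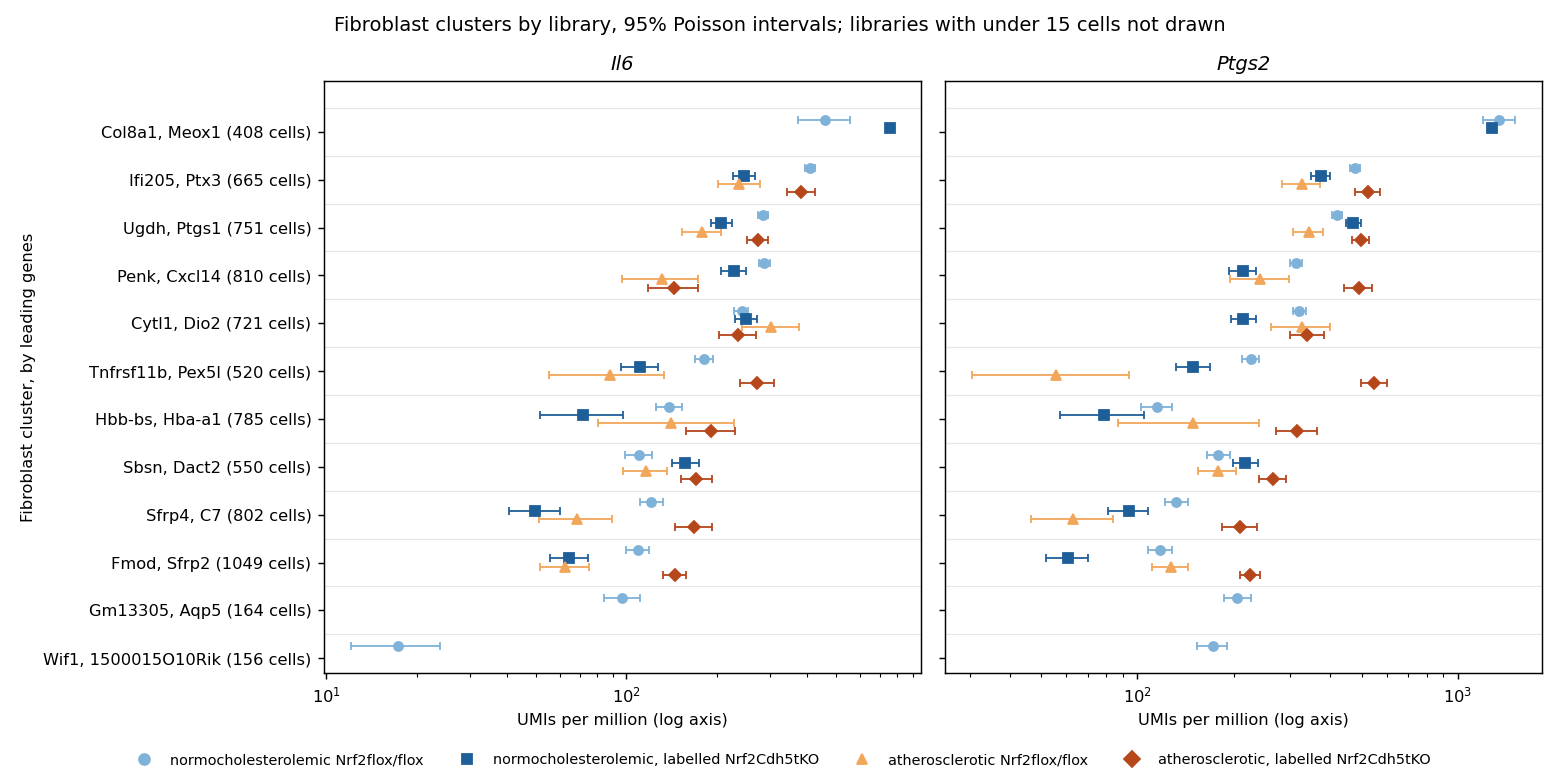
Il6 and Ptgs2 levels in the fibroblast clusters by library, in CPM on a log axis with exact 95% Poisson intervals, each cluster named by its leading genes and drawn for libraries with at least 15 of its cells. The cluster led by Col8a1 and Meox1 is the high one for both genes, and the cluster led by Wif1 is low for Il6.

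The comparison between diets asked what the atherosclerotic state changed. In fibroblasts Il6 was lower in the atherosclerotic library of both pairs, with a log2 ratio of −0.83 (−0.93 to −0.72) for Nrf2flox/flox and −0.63 (−0.69 to −0.56) for the libraries labelled Nrf2Cdh5tKO. Ptgs2 had −0.55 (−0.64 to −0.47) and −0.51 (−0.56 to −0.46). Without the Col8a1 cluster the levels were 218, 177, 124 and 206 CPM for Il6 and 278, 240.2, 192 and 344 CPM for Ptgs2. The Nrf2flox/flox ratios then stayed at −0.82 and −0.54, while those of the Nrf2Cdh5tKO label turned to 0.22 (0.14 to 0.29) and 0.52 (0.46 to 0.58). The direction in the pair labelled Nrf2Cdh5tKO thus turned when 1 cluster, nearly all from 1 library, was left out. Within single clusters, Ptgs2 was higher in the atherosclerotic Nrf2Cdh5tKO library in 9 of 9 clusters with at least 20 cells on each side (log2 0.08 to 2.00) and Il6 in 7 of 9 (−0.66 to 1.76). For Nrf2flox/flox each gene was lower in 5 of 8 clusters (Il6 −1.14 to 0.33, Ptgs2 −1.06 to 0.38).

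The comparison between labels set each library labelled Nrf2Cdh5tKO beside the Nrf2flox/flox library of the same state. In the normocholesterolemic pair Il6 and Ptgs2 were higher in fibroblasts of the library labelled Nrf2Cdh5tKO, by log2 0.53 (0.49 to 0.57) and 0.79 (0.76 to 0.83). Without the Col8a1 cluster they were lower, by −0.31 (−0.36 to −0.25) and −0.21 (−0.26 to −0.16). Within clusters each gene was lower in 7 of 9. In the atherosclerotic pair both genes were higher under the Nrf2Cdh5tKO label, by 0.73 (0.62 to 0.85) and 0.83 (0.74 to 0.93), and without the cluster by 0.73 and 0.84. There, Ptgs2 was higher in 8 of 8 clusters (0.06 to 1.73) and Il6 in 7 of 8 (−0.37 to 1.30). The ratios of the 4 pairs share libraries and are not independent of each other.

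**Figure D5:**
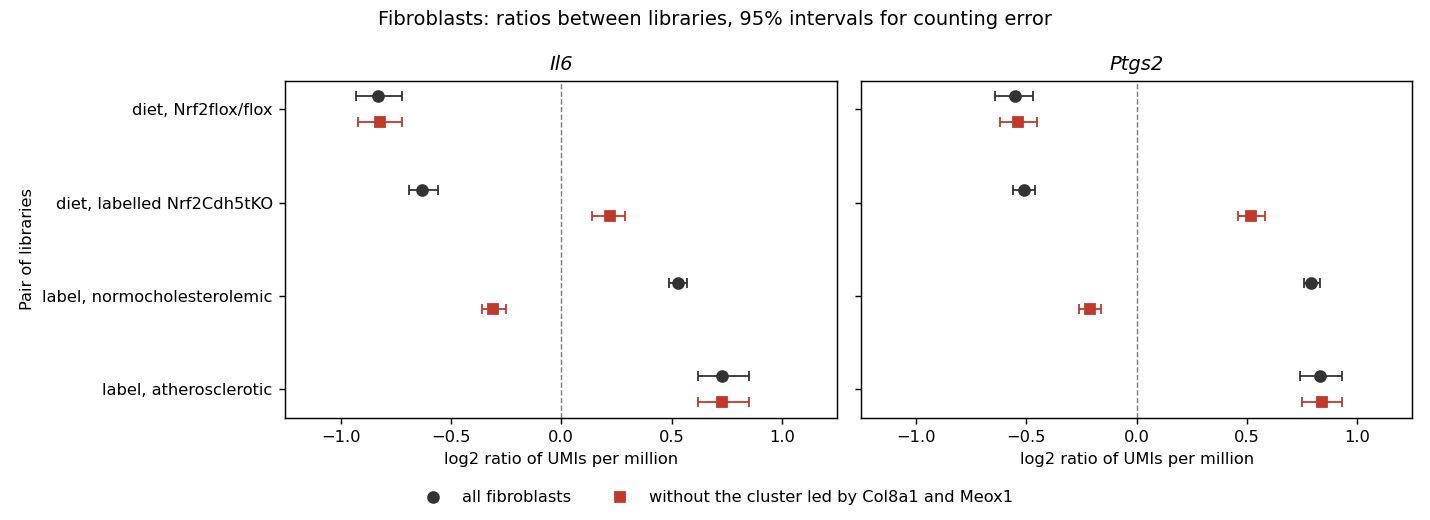
Log2 ratios of Il6 and Ptgs2 in fibroblasts for the 4 pairs of libraries, with exact 95% intervals for counting error, for all gated fibroblasts and without the Col8a1 cluster. The 2 pairs that hold the normocholesterolemic Nrf2Cdh5tKO library change sign without the cluster, and the other pairs keep ratios near −0.82 and 0.73 for Il6.

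Il1r1 in fibroblasts was higher in the atherosclerotic library of both diet pairs, by log2 0.47 (0.33 to 0.60) and 0.58 (0.45 to 0.71), and lower under the Nrf2Cdh5tKO label in both label pairs, by −0.35 (−0.45 to −0.25) and −0.23 (−0.39 to −0.07). Without the Col8a1 cluster the 2 ratios that hold the normocholesterolemic Nrf2Cdh5tKO library were 0.61 (0.47 to 0.75) and −0.38 (−0.49 to −0.27). None of these ratios reached 2-fold. Of the 9 genes with at least 20 fibroblast UMIs in a pair, 1 was past 2-fold in the Nrf2flox/flox diet pair (9.18% of all genes), 3 in the diet pair labelled Nrf2Cdh5tKO (6.52%), 3 in the normocholesterolemic label pair (7.19%) and 1 in the atherosclerotic one (2.54%). These were Il1b, Il1rn and Il1r2, all below 8 CPM in fibroblasts, where the neutrophil markers summed to 63.9, 13.5, 65.1 and 36.1 CPM and the macrophage markers to 55.3, 88.2, 76 and 134 CPM. Their part in the result was not tested. In smooth muscle cells, 1 of 7, 3 of 4, 3 of 8 and 2 of 4 genes were past 2-fold in the same order of pairs, beside 12.4%, 6.32%, 6.44% and 8.51% of all genes. Among them Il6 and Ptgs2 were higher in the atherosclerotic library of the pair labelled Nrf2Cdh5tKO, by log2 1.47 (0.99 to 1.95) and 1.47 (1.19 to 1.75). With Leiden clusters as cell types these ratios were 0.30 and −0.03, so neither kept its size and that of Ptgs2 turned. The Tagln cluster held 30 of 321 smooth muscle cells in that library and 9 of 368 in the other, and its part in this was not tested. Early response and heat shock genes summed to 17989, 12616, 12206 and 17454 CPM in smooth muscle cells, and their part was not tested either.

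Among Lyve1+ resident macrophages both ligands differed between libraries. Il1b was lower in both atherosclerotic libraries, with log2 ratios of −1.80 (−2.81 to −0.94) from 11 against 384 UMIs for Nrf2flox/flox and −1.69 (−2.01 to −1.38) from 103 against 488 UMIs for the Nrf2Cdh5tKO label. It was higher under the Nrf2Cdh5tKO label in both states, by 1.61 (1.41 to 1.81) and 1.71 (0.82 to 2.76). Thinned shares of cells with an Il1b UMI were 7.93%, 15.9%, 4.09% and 8.68%. The gate held clusters of unlike Il1b. With the libraries summed, 497 of its cells in a cluster led by Pf4 and C1qa had 169 CPM. Another 190, in a cluster led by Cd209f and Cd209g, had 52.2 CPM. Counting all kept cells, gated or not, the Pf4 cluster held 405, 154, 21 and 120 cells and the Cd209f cluster 49, 71, 37 and 40. The part of this mix in the ratios was not tested. Il1a had −1.98 (−5.05 to −0.08) from 2 against 79 UMIs and −1.49 (−2.35 to −0.71) in the diet pairs. In the 4 pairs 3 of 8, 2 of 6, 3 of 8 and 1 of 5 genes were past 2-fold, beside 21.2%, 6.7%, 10.9% and 10.4% of all genes. Early response and heat shock genes, which tissue dissociation is known to raise, summed to 14012 to 21016 CPM in these cells, and their part in the result was not tested.

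In other macrophages, 3 of 9, 3 of 7, 3 of 8 and 4 of 7 genes were past 2-fold, beside 19.8%, 10.0%, 13.3% and 15.3% of all genes. The atherosclerotic Nrf2flox/flox library, with 29 such cells, was the high one for Il1rn, Il6 and Ptgs2. In this library the macrophage markers of the gate summed to 9415 CPM, against 15739, 16656 and 18305 CPM in the others. Those of type 2 dendritic cells summed to 539.9 CPM against 169.5 to 193 CPM, and those of classical monocytes to 448 CPM against 109 to 159 CPM. In the normocholesterolemic Nrf2Cdh5tKO library, cardiac muscle markers summed to 6295 CPM, against 0 to 6.71 CPM in the others. T cell markers summed to 156 CPM there, against 5.04 to 39.5 CPM. Early response and heat shock genes summed to 10267, 18003, 9323 and 16549 CPM. The part of these markers and genes in the result was not tested. Ptgs2 of the atherosclerotic Nrf2flox/flox library was 404 (326–495) CPM against 28.3 (20–38.9) CPM in the normocholesterolemic one. This was a log2 ratio of 3.83 (3.27 to 4.42), with 32.6% of 92 UMIs in 1 cell. Il1rn was higher in the atherosclerotic library of both diet pairs, by 2.27 (1.76 to 2.77) and 3.50 (2.28 to 5.01), with 57.1% and 37.3% of the atherosclerotic UMIs in 1 cell each. Il1b was lower under the Nrf2Cdh5tKO label in the atherosclerotic pair, by −1.18 (−1.33 to −1.03). A cluster led by Mmp12 and Cd207 had the higher Il1b level, at 3102, 3111, 5221 and 3575 CPM, and a cluster led by Pf4 and C1qa had 984, 1471, 474 and 652 CPM. The Mmp12 cluster made up 45 of 150, 9 of 105, 6 of 29 and 13 of 95 other macrophages, and its part in the ratios was not tested.

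The partners of the axis are given by the cell type of their highest level, where 56.2% of all genes were highest in a leukocyte type and 43.8% in a stromal one. Of 12 genes of the IL-1 receptor chain and its adaptors, 9 were highest in leukocytes and 3 in stromal cells. Irak1, a kinase next to the receptor, was highest in fibroblasts at 72.6 CPM. Of 6 other ligands of the IL-1 family, 2 reached 200 UMIs. Il33, an alarmin of barrier and stromal cells, was 468 and 439.5 CPM in the normocholesterolemic mesothelial cells, and 241, 242, 269.9 and 258 CPM in fibroblasts. Il1f9, which encodes IL-36 gamma, was 361, 283, 172 and 479 CPM in neutrophils. Of the 10 inflammasome genes that reached 200 UMIs, 8 were highest in leukocytes, among them Casp4, the sensor of cytosolic lipopolysaccharide, at 308 CPM in Lyve1+ resident macrophages. All 6 TNF system genes were highest in leukocytes, with Tnfrsf1a, the main TNF receptor, at 224 CPM in neutrophils. Of 7 IL-6 system genes, 4 were highest in stromal cells. Socs3, the feedback inhibitor, had 735 CPM in fibroblasts and Il6st, the shared signalling chain, 396 CPM in endothelial cells. Of the 3 genes of the IL-18 system, Il18r1 was highest in mesothelial cells at 149 CPM and next in T cells at 145 CPM. Of 14 prostanoid genes, 8 were highest in stromal cells, among them Ptgis, the prostacyclin synthase, at 1001 CPM in smooth muscle cells. The lists are short, and the counts of the IL-6 and prostanoid lists lay near the shares of all genes.

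NF-kB genes and their feedback inhibitors were measured beside Il6 and Ptgs2, their classical targets. All 10 were highest in leukocytes, as were 56.2% of all genes, and Nfkbia, the inhibitor that NF-kB itself induces, had 2868, 3072, 912 and 2089 CPM in neutrophils. In fibroblasts, 9 of 10 were lower in the atherosclerotic than in the normocholesterolemic Nrf2flox/flox library. Their median log2 ratio was −0.63, where the median of all genes was 0.06. Of the 10, 2 were past 2-fold, beside 9.18% of all genes with at least 20 UMIs in the pair. Nfkbia was 1083, 895, 654 and 996 CPM. In the atherosclerotic pair, 8 of 9 were higher in the library labelled Nrf2Cdh5tKO than in its Nrf2flox/flox counterpart (median 0.60, all genes −0.04). In the diet pair labelled Nrf2Cdh5tKO 4 were higher and 5 lower (median −0.02, all genes −0.04), and in the normocholesterolemic label pair 3 higher and 7 lower (−0.19, all genes 0.05). With the Col8a1 cluster left out these became 6 higher and 3 lower (median 0.04) and 0 higher and 10 lower (−0.29). Medians of the other lists in the Nrf2flox/flox diet pair were 0.12 for the receptor chain, 0.46 for inflammasome genes, 0.06 for the TNF system, −0.03 for the IL-6 system and −0.33 for prostanoid genes. Dissociation genes summed to 17917, 16493, 17174 and 17524 CPM in fibroblasts, with a median log2 ratio of −0.31 in the Nrf2flox/flox diet pair and −0.02 in the atherosclerotic label pair. Their part in the result was not tested.

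The genes with the most similar levels were sought among 13178 genes over 41 values of cell type and library with at least 20 cells, by Pearson's r on log2(CPM + 10). These values share libraries and depth, so r is a description. The nearest to Nlrp3 were Igsf6 (0.98), Clec12a (0.97) and Tlr2 (0.97), and to Il1b Mpeg1 (0.93), Plbd1 (0.93) and Cd300c2 (0.92). Tnf was nearest to Atp2b1 (0.94), Il1r2 to Mcemp1 (0.92), Il18 to Il6ra (0.89), Il1r1 to Hlf (0.88), Il1rn to Rnf149 (0.87) and Il1a to Rab20 (0.86). Il6 and Ptgs2 had weaker neighbours, Qpct (0.83) and Anxa1 (0.82), and r between the 2 genes was 0.72. Il6 had r of 0.15 with Il1b and 0.36 with Il1r1.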

How the data were processed

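Single-cell suspensions of 4 pooled libraries were sequenced with 10x Genomics 3′ v3.1 chemistry and counted by the authors with Cell Ranger 6.1.2 against mm10 (GRCm38). The deposited matrices hold raw UMI counts per gene and barcode, which were used as deposited. Barcodes with 200 to 6000 genes and at most 15% mitochondrial counts were kept, as the study did. Doublets were otherwise left in, and their removal with Scrublet was an alternative. Cells were gated on marker lists, with at least 60% of a list's markers detected (4 of 7 for lists of 7). Fibroblasts and smooth muscle cells also needed at least 50 marker UMIs per 10000, a limit set after seeing the marker distributions. Cells that met the fibroblast or smooth muscle gate and the gate of another type were set apart as mixed (403 cells). Mesothelial cells were exempt from this rule and kept their label. Of all kept cells, 739 were not gated. Counts were summed per type and library and scaled to 1000000. Exact Poisson, Clopper-Pearson and binomial 95% intervals were computed with scipy 1.17.1 in Python 3.11.15. Totals were 98754487, 43717402, 12276546 and 24184211 UMIs. A count of 0 was read as at most 3 counts. Clusters came from scanpy 1.11.5 and leidenalg 0.10.2 (2000 variable genes, 30 components, 15 neighbours, resolution 2) without batch correction. Any of the 10 chosen genes among the variable genes were left out of the clustering. Pairs with 20 or more UMIs were counted as past 2-fold in either direction, and a count of 0 in a library only where the ratio at 3 counts was itself past 2-fold towards the other library. Shares of cells after thinning are expected values over draws of 2000 UMIs. With 1 library per group no test was made. The agent injected in the atherosclerotic groups and 1 T cell gene are not reported here. The interval procedures were tested on simulated Poisson counts. These do not hold the concentration of UMIs in single cells seen in the data, so the check does not cover it.

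Groups came from the sample labels. Named genes were the 10 chosen genes, at most 4 of each fixed gene list by summed level, and the 3 genes of most similar level for each. All others, such as cluster leaders and T cell genes, were chosen after their values were seen. The genes and lists were chosen with earlier results of these data known. Positions are from GRCm38, and the upstream sequences from RefSeq GRCm38.p6. Alternatives were a stricter gate, Leiden clusters in place of gates, a 10% mitochondrial limit, no upper limit on genes, removal of cells under 2000 UMIs, a mean over cells, leaving out the top cell and, chosen after seeing the data, leaving out each library, the Col8a1 cluster or all neutrophils outside the Retnlg cluster.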

Additional observations from a re-analysis of the deposited data

Results flagged for a closer look

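Il1rn, the receptor antagonist, had diet ratios of opposite sign in fibroblasts of the 2 labels, from very few UMIs. The log2 ratio of atherosclerotic over normocholesterolemic was −2.63 (−7.96 to −0.08) for Nrf2flox/flox, from 1 against 49 UMIs (0.153 and 0.943 CPM). It was 6.1 (3.52 to 11.44) for the libraries labelled Nrf2Cdh5tKO, from 34 against 1 UMI (2.65 and 0.0387 CPM). As a mean over cells the Nrf2flox/flox ratio turned positive. One cell held 82.4% of the 34 UMIs. In fibroblasts the neutrophil markers summed to 13.5 to 65.1 CPM and the macrophage markers to 55.3 to 134 CPM, and their part was not tested. The difference between the labels was not tested.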

How the results depend on the processing

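No paired analysis was possible because each group is 1 library, so no replicate could be left out and no call by a test exists. Ratios rest on counts from 1 pool of mice a group, and 7 to 18 neutrophils in 3 of the libraries limit their precision. Without the Col8a1 cluster (chosen after seeing the data) the fibroblast log2 ratios of the diet pair labelled Nrf2Cdh5tKO became 0.22 for Il6 and 0.52 for Ptgs2, and those of the normocholesterolemic label pair −0.31 and −0.21. As a mean over cells Ptgs2 was −0.59 and 0.89 in these pairs. Without the top cell Ptgs2 was −0.66 in the Nrf2flox/flox diet pair. Genes highest in neutrophils fell to 2 without the normocholesterolemic Nrf2flox/flox library. With Leiden clusters as cell types, the genes past 2-fold over the 4 pairs were 5 in place of 8 in fibroblasts. The 13 of other macrophages could not be compared, since that type then held 53, 9, 7 and 14 cells by library. Only the first of these reached the minimum of 20 cells, so no pair was counted. Directions turned for Il1b in fibroblasts (−0.27 in the diet pair labelled Nrf2Cdh5tKO with Leiden clusters, and 0.23 in the normocholesterolemic label pair with a stricter gate), Il1b in smooth muscle cells (0.24 in the normocholesterolemic label pair, mean over cells), Il1rn in fibroblasts (0.84 in the Nrf2flox/flox diet pair, mean over cells), Il6 in smooth muscle cells (−0.04 in the atherosclerotic label pair, mean over cells) and Ptgs2 in smooth muscle cells (−0.03 in the diet pair labelled Nrf2Cdh5tKO with Leiden clusters). The cause was not tested. A mean over cells moved 26 of 39 levels, Leiden clusters 19 of 39 and thinning 9 of 10 shares by more than their interval, and Retnlg cluster cells alone moved 20 of 20 neutrophil levels. A stricter gate moved 6 of 39 levels and 18 of 110 log2 ratios and reversed 1. Using a 10% mitochondrial limit moved 0 of 39 levels and 0 of 114 ratios, and removing Scrublet doublets 0 of 39 levels and 4 of 113 ratios.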
